A study of Rattus norvegicus with 19 samples.

Results

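Medium taken from astrocytes expressing human wild-type SOD1 (wtSOD1-ACM) was set against no treatment (control) in rat spinal cord cultures, by the RNA level of every gene above a low limit. The comparison covers all 11887 of the 15597 genes in the deposited table that reached 1 FPKM in at least 4 of the 19 libraries of the series. FPKM relates the fragments sequenced from a gene to the length of its transcript in kilobases and to every 1e+06 fragments of the library, so levels can be compared between genes as well. The comparison rests on 4 wtSOD1-ACM libraries and 5 control libraries. The 5 libraries given medium from astrocytes with mutant human SOD1, G93A (mutSOD1-ACM), and the 5 given long-chain polyphosphate (polyP) at 100 µM entered the same fit and are used only side by side.

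All cultures were prepared from ventral spinal cord dissected at E14 from Sprague-Dawley rat embryos, with a genotype given as wild type, and hold neurons together with glia. The culture medium contained 2% horse serum. The wtSOD1-ACM group was exposed for 90 min to medium in which astrocytes had been kept for 7 days. Those astrocytes had first been grown in 10% fetal bovine serum, and the conditioned medium was supplemented with glucose and frozen before use. The labels give an age of 1 to 2 days after birth for the mouse pups whose spinal cord astrocytes carried mutant SOD1, and describe the wild-type SOD1 medium as its control with no separate species or age. The mutSOD1-ACM and polyP groups were also exposed for 90 min, while the labels give no treatment for the control group and name no vehicle. On culture age the labels differ, with 7 days in vitro in the tissue field, 4 days in the treatment protocol and 7 to 9 days in the growth protocol. Medium from astrocytes without a transgene was not analysed here. What a change to any conditioned medium does and what the SOD1 transgene adds to it therefore cannot be told apart. The p-values treat the libraries as separate cultures, as the labels describe them. The sample labels name no preparation of the conditioned medium, so whether the 4 wtSOD1-ACM libraries share 1 is not known. If they do, the p-values speak only to that preparation.

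SOD1 is a superoxide dismutase, and its mutations are 1 of the causes of inherited amyotrophic lateral sclerosis. NF-kB is a family of transcription factors held in the cytoplasm by inhibitors of the IkB family. Cytokines such as TNF and interleukin-1, and ligands of toll-like receptors, free it, and it then drives chemokines, adhesion molecules, survival factors and its own inhibitors, in astrocytes and microglia of the spinal cord among other cells. The integrated stress response is a separate programme in which general translation slows while the transcription factor ATF4 is made. ATF4 raises genes for amino acid synthesis and transport together with feedback genes such as Chac1, Sesn2 and Trib3.

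The libraries stood apart from each other in ways the groups do not explain, and the labels name no batch. Along the first principal component, which held 43.05% of the variance, they fell into 2 sets that cut across the groups. Set 1 held wtSOD1-ACM replicates 1 and 2 and control replicates 1 to 3, and set 2 held wtSOD1-ACM replicates 3 and 4 and control replicates 4 and 5. The level of Mbp, a myelin protein gene, was 292 and 335 FPKM in the wtSOD1-ACM libraries and 171 to 372 FPKM in the control libraries of set 1, against 6.54 to 7.04 and 7.82 to 9.62 FPKM in set 2. The summed level of 17 microglia markers was 443 to 447 FPKM in wtSOD1-ACM and 216 to 923 FPKM in control within set 1, and 109 to 133 and 116 to 121 FPKM within set 2. Within set 1, control replicate 1 was intermediate in Mbp, and no wtSOD1-ACM library was. The myelin-rich, intermediate (myelin-middle) and myelin-poor libraries are called classes here, and the change within each set stands beside the pooled one for called genes given by library and for some others. Libraries of 1 class were nearly as close to each other across the wtSOD1-ACM, mutSOD1-ACM and control groups (spread of log2 differences 0.0726 to 0.231 over 22 pairs) as within a group (0.0645 to 0.209 over 6 pairs), and the labels do not say whether they share a preparation of cells. Pairs of 1 class with a polyP library on 1 side were wider apart (0.141 to 0.352 over 23 pairs). The number of genes at 1 FPKM or more was 11436 to 11723 in the 9 libraries compared. Summed FPKM did not differ beyond the spread, at 467883 ± 3383 with wtSOD1-ACM and 464188 ± 13830 in control (SD, n = 4 and 5, exact two-sided permutation p = 0.627, where 0.0159 is the smallest possible).

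Exposure to wtSOD1-ACM was accompanied by a rise in a small group of inflammatory genes and a fall in a smaller group, 5 of whose 8 genes are targets of ATF4. Chemokine genes for monocytes and neutrophils, the adhesion molecule gene Icam1 and the genes of NF-kB and its inhibitors were among the rises. The falls were the protein-coding genes Chac1, Sesn2, Trib3, Herpud1, Mthfd2 and Asns and 2 miRNA genes, Mir760 and Mir1896, whose fold changes were the largest of the 8. Most other genes measured, among them neuronal, astrocyte, ribosomal and ion channel genes, did not pass the test.

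In all, 67 genes were called higher with wtSOD1-ACM (0.564% of the genes tested) and 8 were called lower (0.0673%), at an adjusted p under 0.05 in limma with Benjamini-Hochberg adjustment. At an unadjusted p under 0.05 there were 290 higher and 152 lower genes. Fold changes are differences of mean log2(FPKM + 1), which makes the change of scarcely expressed genes look smaller. The median change was 0.76 over the called rises, -0.65 over the called falls and -0.00 over all genes tested. On this scale 25 of the rises and 1 of the falls, Mir760, were 2-fold or larger. In each of the 75 called genes every wtSOD1-ACM library lay on 1 side of every control library, as did 1.14% of all genes above and 0.488% below. All 75 had the same sign in set 1 and in set 2, and 47 of the 67 rises were larger in set 1.

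**Figure D1:**
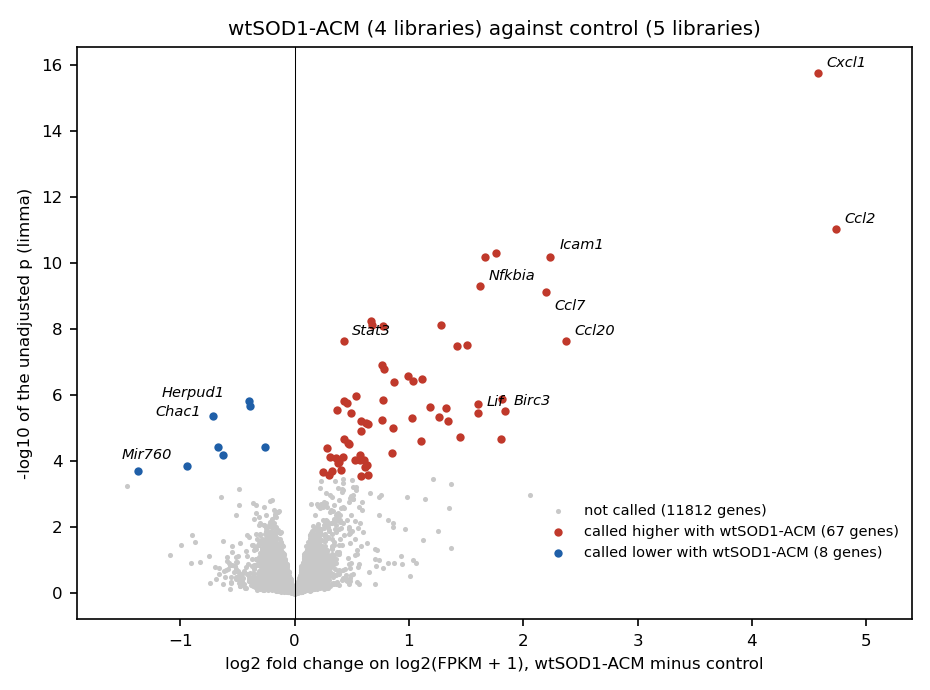
Each point is 1 of the 11887 genes tested, placed by its log2 fold change on log2(FPKM + 1), wtSOD1-ACM minus control (x axis), and by -log10 of the unadjusted limma p (y axis), with 67 genes called higher in red, 8 called lower in blue and 11812 not called in grey. Ccl2 and Cxcl1 lie apart from all other genes at the right.

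With class as a term in the fit 179 genes were higher (1.51%) and 60 lower (0.505%), among them all 75. With the libraries of a group and class averaged to 1 unit, an alternative chosen after seeing the data that leaves 2 wtSOD1-ACM units and 3 control units, 13 genes were called higher and none lower in limma, with 168 higher and 43 lower at an unadjusted p under 0.05. On the same units with class as a term 86 were higher (0.723%) and 12 lower (0.101%), among them 59 of the 75. The 13 of the fit without the term were Ccl2, Cxcl1, Ccl20, Icam1, Ccl7, Nfkbiz, Pgf, Nfkbia, Zc3h12a, Angptl4, Smad7, Itpkc and Map2k3.

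Promoter sequence is shown for 4 of the rises, because their windows hold the motif that NF-kB binds, the kappaB consensus. Windows from RefSeq, assembly GRCr8, run from 250 bases before to 50 bases after the annotated start, and 9586 of the 11887 genes tested have one. These coordinates are those of GRCr8 and not of the build the authors aligned to. The 250 bases before the start are printed 5′ to 3′ on the strand of the gene, with kappaB matches in capitals.

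Cxcl1, minus strand, chr14:17479322-17479571: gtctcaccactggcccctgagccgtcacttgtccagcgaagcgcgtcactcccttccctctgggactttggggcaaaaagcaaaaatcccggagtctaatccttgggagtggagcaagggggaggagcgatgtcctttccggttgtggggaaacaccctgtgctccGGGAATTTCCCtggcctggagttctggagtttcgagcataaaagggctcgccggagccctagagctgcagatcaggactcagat
Cxcl2, minus strand, chr14:17467256-17467505: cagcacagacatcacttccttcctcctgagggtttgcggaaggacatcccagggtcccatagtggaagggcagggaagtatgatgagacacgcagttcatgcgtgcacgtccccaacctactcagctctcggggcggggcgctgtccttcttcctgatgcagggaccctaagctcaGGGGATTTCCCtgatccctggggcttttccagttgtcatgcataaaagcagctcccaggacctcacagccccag
Ccl20, plus strand, chr9:91836909-91837158: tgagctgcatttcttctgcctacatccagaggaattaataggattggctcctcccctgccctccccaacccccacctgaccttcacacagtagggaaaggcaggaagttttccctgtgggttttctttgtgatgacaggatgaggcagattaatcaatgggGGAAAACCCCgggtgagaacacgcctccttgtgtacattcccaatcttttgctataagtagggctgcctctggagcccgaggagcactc
Nfkbia, minus strand, chr6:78597073-78597322: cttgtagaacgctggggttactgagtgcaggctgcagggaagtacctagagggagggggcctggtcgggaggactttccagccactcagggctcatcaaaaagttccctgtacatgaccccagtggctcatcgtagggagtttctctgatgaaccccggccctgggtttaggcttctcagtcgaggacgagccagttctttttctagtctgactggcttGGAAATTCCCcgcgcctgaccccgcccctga

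The match lies 84 to 74 bases before the start of Cxcl1, where 2 matches overlap by all but 1 base, and 74 to 64 bases before that of Cxcl2, where 2 also overlap. It lies 89 to 80 bases before the start of Ccl20 and 31 to 22 bases before that of Nfkbia. On either strand, the kappaB consensus was present in 21 of the 53 called rises that have a window (39.6%), in 0 of the 6 falls that have one and in 936 of all 9586 windows (9.76%). The 21 include Cxcl2, Ccl7 and Il6, which passed the limit of 1 FPKM in 4 libraries through wtSOD1-ACM libraries. The AP-1 motif TGAGTCA, read on both strands, was in 5 of the 53 rises (9.43%), in 0 of the 6 falls and in 3.25% of all windows. The CArG box, which serum response factor binds, was in 1 of the 53 rises (1.89%), Zfp36, in 1 of the 6 falls (16.7%), Herpud1, and in 1.17% of all windows. The window of Icam1 held no kappaB match, and Ccl2, Cxcl3 and Lif were not among the windows used here. A match is a description of these letters and does not show that a factor was bound.

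The chemokines that attract neutrophils through the receptor CXCR2 rose together. Cxcl1 (identifier 81503) had 112, 108, 71.6 and 74.7 FPKM in wtSOD1-ACM replicates 1 to 4, against 2.76, 3, 2.16, 3.26 and 2.93 FPKM in control replicates 1 to 5. Every wtSOD1-ACM library was far above the highest control library, and within wtSOD1-ACM the libraries of set 1 were the higher ones. The mean was 91.6 ± 21.5 FPKM with wtSOD1-ACM and 2.82 ± 0.411 FPKM in control (SD, n = 4 and 5), a ratio of 32.5 (log2 fold change 4.58, SE 0.16, adjusted p = 2.1e-12; 4.94 in set 1 and 4.18 in set 2).

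Cxcl2 (114105), a close relative of Cxcl1, had 6.04, 5.59, 1.91 and 1.58 FPKM with wtSOD1-ACM, against 0.16, 0.75, 0.29, 0 and 0.08 FPKM in control. Cxcl3 (171551), from the same gene cluster, had 4.95, 6.62, 1.88 and 1.89 FPKM with wtSOD1-ACM, against 0.52, 0.66, 0.42, 0.34 and 0.35 FPKM in control. In both genes the libraries of set 1 stood above those of set 2 with wtSOD1-ACM, and the groups did not overlap. The changes were 1.81 (SE 0.25, adjusted p = 0.000676; 2.31 in set 1 and 1.40 in set 2) for Cxcl2 and 1.60 (SE 0.23, adjusted p = 0.000775; 2.14 in set 1 and 1.10 in set 2) for Cxcl3. Both passed the limit of 1 FPKM in 4 libraries through wtSOD1-ACM libraries, as did Ccl7 and Il6, so that a difference in them was built in. Cxcl10 (245920), which attracts T cells through CXCR3, had 7.59, 7.8, 4.33 and 3.3 FPKM with wtSOD1-ACM, against 1.85, 1.6, 1.22, 1.35 and 1.93 FPKM in control, again with the higher values in set 1 (log2 fold change 1.32, SE 0.19, adjusted p = 0.000945; 1.77 in set 1 and 0.87 in set 2). Of the CXC chemokine list 13 genes were in the table and 8 were tested, and those 4 were its only calls. Cxcl16, a membrane-bound member, had 11.1 ± 4.05 FPKM with wtSOD1-ACM and 6.18 ± 3.46 FPKM in control (adjusted p = 0.458), and Cxcl12, a homing signal for many cells, had 36.6 ± 3.97 and 42.7 ± 6.68 FPKM (adjusted p = 1). The adjusted p of Cxcl16 was 0.00853 with class as a term and 0.159 on units with that term.

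Among the CC chemokines, Ccl2 (24770), which attracts monocytes through CCR2, had 168, 165, 98.5 and 105 FPKM with wtSOD1-ACM, against 2.82, 8.1, 5.12, 2.58 and 2.79 FPKM in control. Even the lowest wtSOD1-ACM library was far above the highest control library, replicate 2. The mean was 134 ± 37.4 FPKM with wtSOD1-ACM and 4.28 ± 2.37 FPKM in control, a ratio of 31.3 (log2 fold change 4.74, SE 0.30, adjusted p = 5.56e-08; 4.81 in set 1 and 4.80 in set 2), with 4.81 in set 1 and 4.80 in set 2. Ccl7 (287561), another monocyte attractant, had 8.56, 8.24, 4.4 and 5.99 FPKM with wtSOD1-ACM, against 0.47, 1.68, 0.46, 0.36 and 0.58 FPKM in control (log2 fold change 2.20, SE 0.19, adjusted p = 1.26e-06; 2.39 in set 1 and 2.07 in set 2).

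Ccl20 (29538), the ligand of CCR6, had 6.62, 9.32, 7.9 and 8.82 FPKM with wtSOD1-ACM, against 1.2, 1.56, 0.23, 0.42 and 0.69 FPKM in control. With wtSOD1-ACM the libraries of set 2 were as high as those of set 1 (log2 fold change 2.38, SE 0.25, adjusted p = 2.11e-05; 2.22 in set 1 and 2.59 in set 2). These 3 were the called members of the 10 CC, CX3C and XC chemokines tested, whose median change was 0.49. Among them Ccl7 passed the limit of 1 FPKM in 4 libraries through wtSOD1-ACM libraries, so that a difference in it was built in. Ccl3 (25542), a product of microglia and macrophages, had 17.2, 19.8, 1.89 and 2.7 FPKM with wtSOD1-ACM, against 3.01, 9.49, 6.91, 1.37 and 1.82 FPKM in control, and was not called (adjusted p = 1). Its groups overlapped, since the wtSOD1-ACM libraries of set 2 lay within the range of the control libraries. Cx3cl1, the neuronal ligand of a microglial receptor, had 55.1 ± 2.54 FPKM with wtSOD1-ACM and 49 ± 7.08 FPKM in control (adjusted p = 1).

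Of the NF-kB subunits, Nfkb2 and Nfkb1 rose. Nfkb2 (309452), the p100 precursor of p52, had 27.7, 27.9, 22.5 and 22 FPKM with wtSOD1-ACM, against 7.95, 15.1, 13.2, 9.75 and 10.2 FPKM in control (log2 fold change 1.11, SE 0.14, adjusted p = 0.000208; 1.18 in set 1 and 1.08 in set 2). Nfkb1 (81736), the p105 precursor of p50, had 31.3, 30.6, 26 and 22.4 FPKM with wtSOD1-ACM, against 12.8, 20.7, 17, 14.8 and 14.3 FPKM in control (log2 fold change 0.76, SE 0.12, adjusted p = 0.0018; 0.87 in set 1 and 0.69 in set 2). In both, control replicate 2 came closest to the wtSOD1-ACM libraries without reaching them. Rela (309165), the p65 subunit, had 34.4, 34.5, 33.8 and 30.6 FPKM with wtSOD1-ACM, against 20.6, 28.1, 28.1, 25.9 and 28.1 FPKM in control. Its groups did not overlap either, but it was not called (log2 fold change 0.35, SE 0.10, adjusted p = 0.216; 0.43 in set 1 and 0.25 in set 2; adjusted p = 0.00112 with class as a term and 0.0716 on units with that term). Rel and Relb, the other members of the family, were not analysed here.

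Of 14 inhibitors and feedback genes of the pathway, 5 rose. Nfkbia (25493), IkB-alpha, which captures NF-kB in the cytoplasm, had 62.8, 65.1, 42.1 and 44.2 FPKM with wtSOD1-ACM, against 14.9, 19.6, 18.5, 13.6 and 16 FPKM in control. All 4 wtSOD1-ACM libraries stood above the highest control library, replicate 2 (log2 fold change 1.62, SE 0.13, adjusted p = 9.82e-07; 1.81 in set 1 and 1.49 in set 2). Nfkbiz (304005), a nuclear IkB protein that helps to switch on a subset of NF-kB targets, had 13.5, 13.4, 10 and 10 FPKM with wtSOD1-ACM, against 2.22, 3.22, 2.32, 2.32 and 3.74 FPKM in control (log2 fold change 1.76, SE 0.13, adjusted p = 1.61e-07; 2.02 in set 1 and 1.48 in set 2). Zc3h12a (313587), regnase-1, which degrades cytokine messengers, had 10.5, 10.8, 7.63 and 7.88 FPKM with wtSOD1-ACM, against 1.71, 4.42, 2.85, 2.17 and 2.17 FPKM in control (log2 fold change 1.51, SE 0.16, adjusted p = 2.52e-05; 1.60 in set 1 and 1.47 in set 2).

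The other called members of this list were Nfkbie, IkB-epsilon, at 20.7 ± 3.36 FPKM with wtSOD1-ACM and 12.9 ± 1.26 FPKM in control (log2 fold change 0.63, adjusted p = 0.002), and Tank, an adaptor of TRAF proteins, at 9.18 ± 0.806 and 6.7 ± 0.635 FPKM (0.40, adjusted p = 0.0326). Tank lost its call without any 1 of 6 of the 9 libraries (control replicates 1, 2, 3 and 5 and wtSOD1-ACM replicates 1 and 2), with an adjusted p of up to 0.181. That makes 5 of 14 tested members called higher, with a median of 0.31. Those with the highest level among the uncalled were Chuk, an activating kinase of the pathway, at 16.2 ± 1.87 FPKM with wtSOD1-ACM and 15.5 ± 2.43 FPKM in control, N4bp1 at 15 ± 0.989 and 14.1 ± 0.871 FPKM and Nfkbib, IkB-beta, at 14.6 ± 2.4 and 13.3 ± 2.37 FPKM (adjusted p = 1, 1 and 1). Tnfaip3, which encodes the inhibitor A20, was not analysed here.

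**Figure D2:**
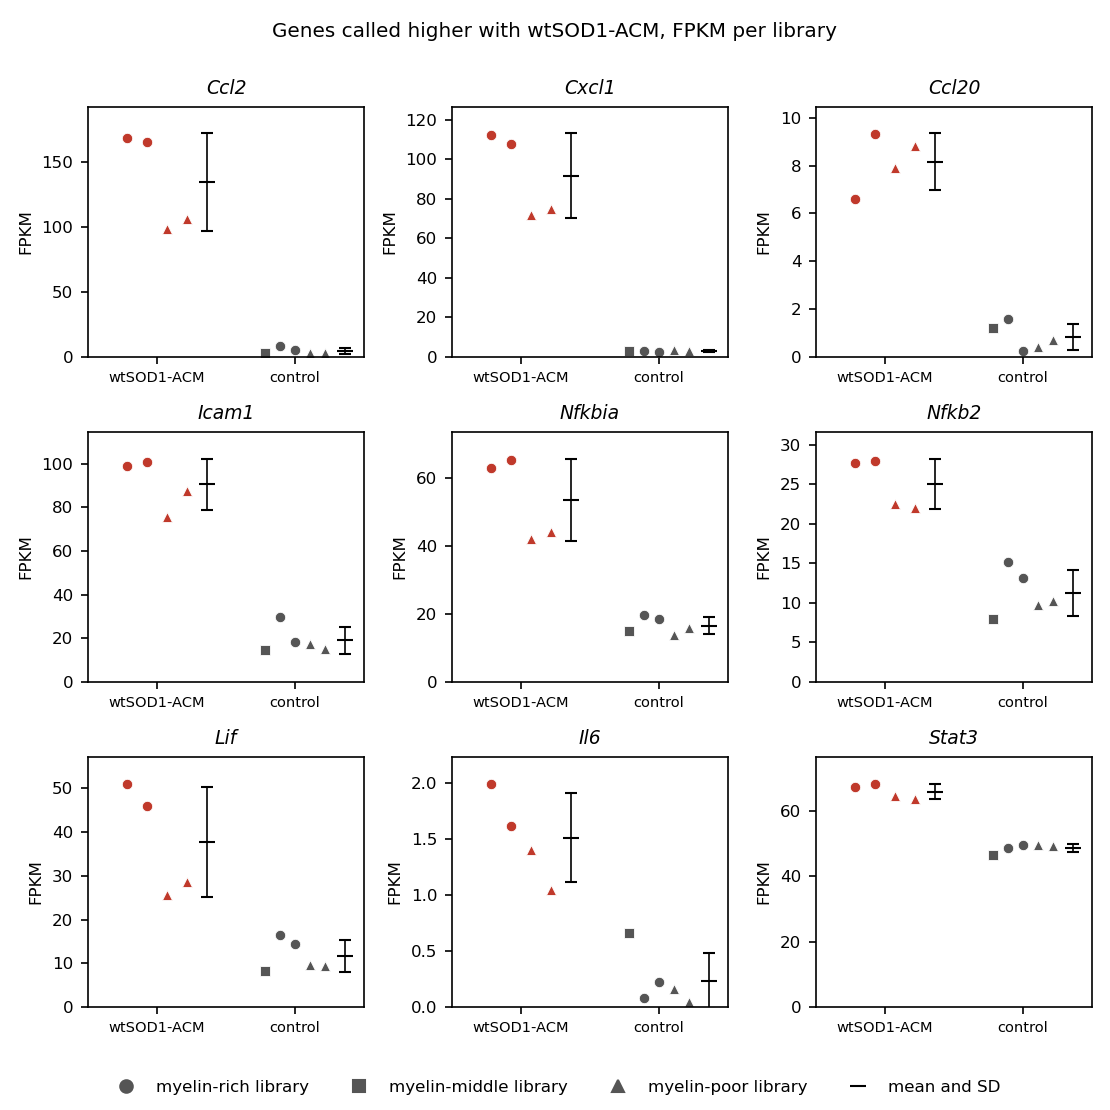
FPKM of 9 called genes (1 panel each) in the 4 wtSOD1-ACM libraries at the left and the 5 control libraries at the right, with a marker shape for each class of library and bars for the mean and SD. In each panel all wtSOD1-ACM libraries lie above all control libraries, as in Nfkbia with 42.1 to 65.1 against 13.6 to 19.6 FPKM. Il6 passed the limit for testing through wtSOD1-ACM libraries.

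Icam1 (25464), the adhesion molecule that leukocytes bind, had 99.2, 101, 75.4 and 87.3 FPKM with wtSOD1-ACM, against 14.4, 29.8, 18.2, 17.5 and 15.2 FPKM in control. Control replicate 2 was the highest control library and stayed well below the lowest wtSOD1-ACM library. The mean was 90.6 ± 11.8 FPKM with wtSOD1-ACM and 19 ± 6.23 FPKM in control, a ratio of 4.76 (log2 fold change 2.23, SE 0.16, adjusted p = 1.61e-07; 2.27 in set 1 and 2.24 in set 2). Icam1 was 1 of 5 adhesion molecules tested and the only call among them, while Vcam1, its partner on inflamed vessels, had 16.2 ± 2.05 FPKM with wtSOD1-ACM and 9.81 ± 4.16 FPKM in control (adjusted p = 0.341; 0.00273 with class as a term and 0.03 on units with that term). Itga5, the fibronectin receptor subunit, was outside the lists, is named after its values were seen and had 48.1 ± 2.46 FPKM with wtSOD1-ACM and 26.1 ± 4.01 FPKM in control (0.87, adjusted p = 0.00023).

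Of 18 genes listed as survival factors and other NF-kB targets, 6 were called higher and the median was 0.36. With class as a term 10 of them were higher, and 6 on the units with that term. Birc3 (78971), an inhibitor of apoptosis that also acts in TNF receptor signalling, had 7.83, 8.59, 3.11 and 3.49 FPKM with wtSOD1-ACM, against 0.24, 1.53, 1.64, 0.47 and 0.37 FPKM in control (log2 fold change 1.84, SE 0.28, adjusted p = 0.00113; 2.19 in set 1 and 1.60 in set 2). Tnfaip2 (299339), a TNF-induced protein that acts on membrane protrusions, had 32, 33.4, 23.7 and 24.5 FPKM with wtSOD1-ACM, against 7.67, 13.1, 9.02, 10.2 and 9.94 FPKM in control (log2 fold change 1.42, SE 0.15, adjusted p = 2.61e-05; 1.65 in set 1 and 1.18 in set 2). Ier3 (294235), an early survival gene, had 68.5, 64.8, 70.1 and 68.6 FPKM with wtSOD1-ACM, against 34.4, 30.4, 27.1, 36.8 and 41 FPKM in control (log2 fold change 1.00, SE 0.12, adjusted p = 0.00018; 1.10 in set 1 and 0.82 in set 2). The wtSOD1-ACM libraries of set 1 were the higher ones for Birc3 and Tnfaip2, whereas for Ier3 the 4 libraries were nearly equal. Gadd45b, a stress sensor that feeds the p38 and JNK kinases, rose by 0.77 (adjusted p = 9.33e-05), and Tnfaip6, a hyaluronan-binding protein that limits inflammation, rose by 0.77 (adjusted p = 0.000699). Sdc4, a heparan sulfate proteoglycan named after its values were seen, rose by 0.63 (adjusted p = 0.0239) and lost its call without any 1 of 5 libraries (control replicates 3, 4 and 5 and wtSOD1-ACM replicates 1 and 2), with an adjusted p of up to 0.126. Sod2, the mitochondrial dismutase, had 33 ± 8.66 FPKM with wtSOD1-ACM and 23.1 ± 2.64 FPKM in control and did not pass (adjusted p = 0.182, and 0.00206 with class as a term).

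Cytokine genes upstream of NF-kB gave a different picture. Il1b (24494), interleukin-1 beta, had 18.1, 21.2, 2.08 and 2.26 FPKM with wtSOD1-ACM, against 0.49, 3.5, 1.24, 0.38 and 0.31 FPKM in control. It was high in the set 1 libraries of wtSOD1-ACM, whereas those of set 2 lay below control replicate 2 (log2 fold change 2.06, SE 0.53, adjusted p = 0.128; 3.06 in set 1 and 1.24 in set 2; adjusted p = 0.00128 with class as a term and 0.105 on units with that term). Tnf, named after its values were seen, had 4.49, 5.34, 0.7 and 0.6 FPKM with wtSOD1-ACM, against 0.24, 0.89, 0.33, 0.37 and 0.08 FPKM in control, and stayed below the limit for testing. Among the wtSOD1-ACM libraries these values moved with the summed microglia markers, which were 443 to 447 FPKM in set 1 and 109 to 133 FPKM in set 2. Across the groups they did not. Control replicate 2 had the highest sum, 923 FPKM. Its Il1b, 3.5 FPKM, and its Tnf, 0.89 FPKM, were the highest of the control libraries but below those of wtSOD1-ACM replicates 1 and 2. In the control libraries of set 2 the sum was 116 to 121 FPKM, with Il1b at 0.38 and 0.31 FPKM. The part of microglia in the result was not tested. Fewer cells of a type and less RNA per cell cannot be told apart in such bulk samples.

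Csf1 (78965), the growth factor of microglia and macrophages, had 51, 53.7, 72.6 and 81.2 FPKM with wtSOD1-ACM, against 26.4, 32.6, 17.4, 33.5 and 30.3 FPKM in control. Here the wtSOD1-ACM libraries of set 2 were the higher ones, and the groups did not overlap (log2 fold change 1.18, SE 0.17, adjusted p = 0.000903; 1.05 in set 1 and 1.24 in set 2). Csf2, GM-CSF, also named after its values were seen, had 0.71, 0.17, 0.26 and 0.26 FPKM with wtSOD1-ACM, was listed at 0 in all 5 control libraries and was not tested. Of 6 cytokine ligands of the IL-1, TNF and CSF families tested, Csf1 was the only call. None of the 20 receptors and adaptors of IL-1 and TNF was called (limma, 2 higher and 1 lower at an unadjusted p under 0.05). The receptor Il1r1 (25663), named after its values were seen, had 16.5, 17.8, 18 and 18.4 FPKM with wtSOD1-ACM, against 14.8, 13.8, 9.75, 11.6 and 11 FPKM in control, with no overlap (log2 fold change 0.51, SE 0.14, adjusted p = 0.158; 0.42 in set 1 and 0.64 in set 2; adjusted p = 6.63e-05 with class as a term and 0.00328 on units with that term).

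Of 13 interleukin-6 family ligands and receptors tested 2 were called higher, Lif and Il6, with a median of 0.12, and their downstream factor Stat3 rose as well. Il6 passed the limit of 1 FPKM in 4 libraries through wtSOD1-ACM libraries, so that a difference in it was built in. Lif (60584), leukaemia inhibitory factor, had 51.1, 45.9, 25.5 and 28.5 FPKM with wtSOD1-ACM, against 8.13, 16.5, 14.4, 9.58 and 9.43 FPKM in control (log2 fold change 1.61, SE 0.24, adjusted p = 0.0012; 1.87 in set 1 and 1.41 in set 2). Il6 (24498) was scarce, at 1.99, 1.61, 1.4 and 1.04 FPKM with wtSOD1-ACM, against 0.66, 0.08, 0.22, 0.16 and 0.04 FPKM in control (log2 fold change 1.03, SE 0.13, adjusted p = 0.000228; 1.11 in set 1 and 1.01 in set 2). Stat3 (25125), the transcription factor downstream of both, had 67.3, 68.3, 64.5 and 63.5 FPKM with wtSOD1-ACM, against 46.5, 48.7, 49.4, 49.6 and 49.1 FPKM in control. The change in Stat3 was small, but the libraries within each group were close together and the groups did not overlap (log2 fold change 0.43, SE 0.05, adjusted p = 2.11e-05; 0.48 in set 1 and 0.37 in set 2).

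Of 16 STAT3 targets and JAK-STAT feedback genes 3 were called higher, with a median of 0.41. With class as a term 8 of them were higher, and 4 on the units with that term. Cebpd (25695), a transcription factor of the acute phase, had 24.3, 20.8, 11.7 and 11.8 FPKM with wtSOD1-ACM, against 3.68, 7.06, 7.88, 4.23 and 4.94 FPKM in control, with the highest values in set 1 of wtSOD1-ACM (log2 fold change 1.45, SE 0.25, adjusted p = 0.00484; 1.76 in set 1 and 1.20 in set 2). Socs2 rose by 0.61 (adjusted p = 0.018) and Cish by 0.53 (adjusted p = 0.0181), and both damp cytokine receptor signals. Each lost its call without any 1 of 5 libraries, Socs2 with an adjusted p of up to 0.0764 (control replicates 4 and 5 and wtSOD1-ACM replicates 1, 2 and 4) and Cish with one of up to 0.099 (control replicates 3 and 5 and wtSOD1-ACM replicates 1, 2 and 3). Junb had 93.3 ± 21.4 FPKM with wtSOD1-ACM and 65.7 ± 8.28 FPKM in control (adjusted p = 0.78), and Timp1, an inhibitor of matrix proteases, 106 ± 9.08 and 75.2 ± 15.1 FPKM (adjusted p = 0.156, and 0.000196 with class as a term). Socs3, the classical STAT3 feedback gene, had 18.3 ± 6.27 FPKM with wtSOD1-ACM and 12.8 ± 1.41 FPKM in control (adjusted p = 0.799, and 0.046 with class as a term), and is named after its values were seen. Its change was 0.87 in set 1 and -0.02 in set 2.

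Genes of the interferon response were for the most part not called. Gbp5 (362050), a guanylate-binding protein of the inflammasome pathway, had 14.7, 14.7, 5.01 and 4.64 FPKM with wtSOD1-ACM, against 0.72, 3.17, 2.91, 1.39 and 1.3 FPKM in control (log2 fold change 1.80, SE 0.31, adjusted p = 0.00521; 2.37 in set 1 and 1.31 in set 2). Irf1 (24508), a transcription factor that NF-kB induces, had 7.53, 7.53, 4.99 and 4.99 FPKM with wtSOD1-ACM, against 1.92, 3.83, 3.01, 2.18 and 1.99 FPKM in control (log2 fold change 1.02, SE 0.16, adjusted p = 0.00157; 1.15 in set 1 and 0.96 in set 2). Both were higher in set 1 than in set 2 with wtSOD1-ACM and did not overlap control. None of the 13 type I interferon-stimulated genes and none of the 13 antigen presentation genes was called (limma, 0 of either list at an unadjusted p under 0.05). Ifitm3, an antiviral membrane protein, had 10.3 ± 1.26 FPKM with wtSOD1-ACM and 8.17 ± 3.54 FPKM in control, and B2m, the light chain of MHC class I, had 53.6 ± 15 and 54.3 ± 17.6 FPKM (adjusted p = 1 for each).

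Of 40 rapid immediate early genes, 7 were called higher. Fos (314322), a classical reporter of neuronal activity, had 171, 175, 92 and 87.3 FPKM with wtSOD1-ACM, against 151, 101, 163, 94.2 and 107 FPKM in control (log2 fold change 0.05, adjusted p = 1; 0.35 in set 1 and -0.16 in set 2). Npas4 (266734), which follows calcium entry in neurons, had 39.3, 47.3, 9.97 and 9.64 FPKM with wtSOD1-ACM, against 26.8, 31, 40.6, 16.2 and 18.5 FPKM in control (-0.26, adjusted p = 1; 0.40 in set 1 and -0.76 in set 2). Egr1 (24330) had 70.8, 73.9, 70.5 and 66.1 FPKM with wtSOD1-ACM, against 57, 59.7, 69, 84.7 and 94.1 FPKM in control (-0.02, adjusted p = 1; 0.23 in set 1 and -0.38 in set 2). The groups overlapped in all 3 genes, and in Fos and Npas4 the set 1 libraries of wtSOD1-ACM were far above those of set 2.

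The 7 called members of the 40 rapid immediate early genes were Ier3, Gadd45b, Maff, Rhob, Fosl1, Ier5l and Zfp36, all higher, with Ier5l and Zfp36 named after their values were seen. Maff, a small Maf factor, rose by 0.54 (adjusted p = 0.00058) and Rhob, a small GTPase, by 0.43 (adjusted p = 0.000699). Fosl1 (25445), an AP-1 subunit, had 44.7, 46.5, 43.8 and 40.2 FPKM with wtSOD1-ACM, against 24.8, 26.8, 30, 31.3 and 33.3 FPKM in control (log2 fold change 0.57, SE 0.11, adjusted p = 0.018; 0.73 in set 1 and 0.37 in set 2). Zfp36 (79426), tristetraprolin, which destabilises cytokine messengers, had 36, 38, 32.2 and 29.5 FPKM with wtSOD1-ACM, against 15.9, 20.7, 22.7, 25.1 and 28.6 FPKM in control (log2 fold change 0.58, SE 0.13, adjusted p = 0.0455; 0.88 in set 1 and 0.20 in set 2). In Zfp36 the lowest wtSOD1-ACM library was barely above the highest control library. Fosl1 lost its call without any 1 of control replicates 1 and 2 and wtSOD1-ACM replicates 1, 2 and 3 (adjusted p up to 0.085), and Zfp36 without any 1 of control and wtSOD1-ACM replicates 1, 2 and 3 (up to 0.225). Ier5l, at 39.9 ± 3.69 FPKM with wtSOD1-ACM and 30.3 ± 2.9 FPKM in control, lost its call without any 1 of 7 libraries (all but control replicate 5 and wtSOD1-ACM replicate 2; up to 0.119). The median of the list was 0.10, with 0.34 in set 1 and -0.03 in set 2. None of 27 delayed activity-regulated genes was called (limma, 3 higher at an unadjusted p under 0.05). Bdnf (24225), a neurotrophin gene of that list, had 9.24, 9.65, 7.98 and 7.26 FPKM with wtSOD1-ACM, against 12.5, 7.68, 9.75, 9.04 and 9.77 FPKM in control, with overlap (adjusted p = 1).

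Klf2 (306330), a zinc finger factor known to restrain NF-kB targets in endothelial cells and macrophages, had 8.32, 8.65, 7.22 and 7.1 FPKM with wtSOD1-ACM, against 11.7, 9.11, 9.18, 13 and 14.8 FPKM in control. All wtSOD1-ACM libraries lay below the lowest control library, and the change was not called (log2 fold change -0.49, SE 0.12, adjusted p = 0.0944; -0.20 in set 1 and -0.86 in set 2; adjusted p = 0.0218 with class as a term and 0.31 on units with that term).

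Smad7 and Pmepa1, feedback genes of TGF-beta signalling, rose. Smad7 (81516), the inhibitory SMAD, had 11.6, 11, 13.1 and 12.8 FPKM with wtSOD1-ACM, against 5.96, 7.09, 7.24, 6.84 and 6.21 FPKM in control (log2 fold change 0.77, SE 0.08, adjusted p = 8.78e-06; 0.67 in set 1 and 0.89 in set 2). Pmepa1 (311676), a membrane protein that sequesters receptor SMADs, had 109.5, 108, 123 and 115 FPKM with wtSOD1-ACM, against 71.3, 71.3, 73.1, 55.1 and 60.5 FPKM in control (log2 fold change 0.78, SE 0.09, adjusted p = 0.000111; 0.59 in set 1 and 1.03 in set 2). In both, the set 2 libraries were the higher ones within wtSOD1-ACM. They were the only calls among 20 TGF-beta and BMP targets, whose median was 0.08. Ctgf had 1016 ± 139 FPKM with wtSOD1-ACM and 891 ± 131 FPKM in control, and Id3, a BMP target, had 138 ± 8.05 and 151 ± 18.2 FPKM (adjusted p = 1 for each). Tgif1, a co-repressor of SMADs outside the lists and named after its values were seen, rose by 0.39 (adjusted p = 0.0194) and lost its call without any 1 of control replicates 1 and 3 and wtSOD1-ACM replicates 3 and 4 (adjusted p up to 0.104).

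Of 21 growth factors 2 were called higher, and none of 16 collagens and matrix genes or 18 matrix proteases and inhibitors was called (limma, 0 of the 16 and 3 of the 18 at an unadjusted p under 0.05, all 3 higher). With class as a term 3 of the 18 were higher, and 3 on the units with that term, against 0 of the 16 in both. Pgf (94203), placental growth factor, a ligand of the VEGF receptor FLT1, had 14.4, 14.4, 12.6 and 14.2 FPKM with wtSOD1-ACM, against 4.92, 3.38, 3.55, 3.47 and 3.31 FPKM in control. The wtSOD1-ACM libraries were close to each other in both sets (log2 fold change 1.67, SE 0.12, adjusted p = 1.61e-07; 1.65 in set 1 and 1.71 in set 2). Pdgfb, a platelet-derived growth factor chain, rose by 0.62 (adjusted p = 0.0257) and lost its call without any 1 of 5 libraries (control replicates 1 and 3 and wtSOD1-ACM replicates 1, 3 and 4; adjusted p up to 0.139). Among the uncalled growth factors, Vegfa had 49.8 ± 9.38 FPKM with wtSOD1-ACM and 50.3 ± 10.4 FPKM in control, and Pdgfa, named after its values were seen, had 23.5 ± 3.44 and 21.4 ± 4.11 FPKM (adjusted p = 1 for each).

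Angptl4 (362850), an inhibitor of lipoprotein lipase, had 41.9, 37.6, 39.8 and 42.7 FPKM with wtSOD1-ACM, against 13.2, 17.2, 14.5, 18.9 and 17 FPKM in control (log2 fold change 1.28, SE 0.13, adjusted p = 8.78e-06; 1.36 in set 1 and 1.16 in set 2). The groups were far apart and each was narrow. Angptl4 and Nfkbia were the 2 calls among 16 glucocorticoid targets, and Fkbp5 and Tsc22d3, both classical members (Tsc22d3 named after its values were seen), were not called (adjusted p = 1 for each). Has2, a hyaluronan synthase, had 9.81, 9.87, 6.35 and 6.67 FPKM with wtSOD1-ACM, against 2.79, 4.09, 2.91, 1.78 and 1.72 FPKM in control (log2 fold change 1.34, SE 0.21, adjusted p = 0.00183; 1.36 in set 1 and 1.45 in set 2). Tfpi2, an inhibitor of serine proteases, had 9.49, 10.3, 4.68 and 4.9 FPKM with wtSOD1-ACM, against 2.41, 2.18, 3.32, 1.86 and 1.98 FPKM in control (log2 fold change 1.26, SE 0.19, adjusted p = 0.0015; 1.59 in set 1 and 0.99 in set 2). F3, tissue factor, which starts coagulation, had 127 ± 6.68 FPKM with wtSOD1-ACM and 85.1 ± 11.3 FPKM in control (log2 fold change 0.58, adjusted p = 0.0032). Gal, the neuropeptide galanin, had 7.67, 8.41, 10.8 and 10.8 FPKM with wtSOD1-ACM, against 4.37, 3.35, 3.04, 3.73 and 4.69 FPKM in control, with the set 2 libraries the higher ones in wtSOD1-ACM (log2 fold change 1.10, SE 0.20, adjusted p = 0.00584; 0.99 in set 1 and 1.18 in set 2). Has2, Tfpi2, F3 and Gal belong to the 24 rises that were in no gene list, and they are named after their values were seen.

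Further single calls stood in lists with no other call. Bag3, a co-chaperone, was the only call among 18 heat shock genes, at 20.7 ± 0.761 FPKM with wtSOD1-ACM and 14.4 ± 0.665 FPKM in control (0.49, adjusted p = 0.00122). Nuak2, a kinase that YAP induces, was the only call among 25 YAP and SRF targets (0.47, adjusted p = 0.00686). Bhlhe40, a transcriptional repressor, was the only call among 14 circadian clock genes (0.85, adjusted p = 0.0123; 0.0644 at most when wtSOD1-ACM replicate 1 or 2 was left out). Map2k3, a kinase that activates p38, had 22.4 ± 0.747 FPKM with wtSOD1-ACM and 13.7 ± 1.15 FPKM in control (0.67, adjusted p = 8.28e-06). Itpkc, an inositol trisphosphate kinase, had 19 ± 0.59 and 11.6 ± 0.798 FPKM (0.67, adjusted p = 8.78e-06). Map2k3 and Itpkc were in no list and are named after their values were seen.

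The falls centred on targets of ATF4. Chac1 (362196), which breaks down glutathione, had 32.5, 35.4, 28.5 and 25.6 FPKM with wtSOD1-ACM, against 45, 45, 52.1, 52 and 57.4 FPKM in control. Every wtSOD1-ACM library lay well below the lowest control library (log2 fold change -0.71, SE 0.11, adjusted p = 0.00146; -0.47 in set 1 and -0.99 in set 2). Sesn2 (502988), a leucine sensor that restrains mTORC1, had 17.5, 18.7, 12.8 and 12.2 FPKM with wtSOD1-ACM, against 24.6, 28, 27.7, 20.4 and 22.6 FPKM in control (log2 fold change -0.67, SE 0.12, adjusted p = 0.0085; -0.54 in set 1 and -0.74 in set 2). Trib3 (246273), a pseudokinase that feeds back on ATF4, had 2.08, 2.15, 3.1 and 2.33 FPKM with wtSOD1-ACM, against 3.6, 3.9, 4.07, 4.99 and 4.71 FPKM in control (log2 fold change -0.62, SE 0.12, adjusted p = 0.0134; -0.64 in set 1 and -0.66 in set 2). Groups did not overlap in either gene. Sesn2 lost its call without wtSOD1-ACM replicate 3 (adjusted p = 0.0512), and Trib3 without wtSOD1-ACM replicate 1 or 2 (adjusted p up to 0.0742).

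Mthfd2 (680308), a mitochondrial enzyme of folate metabolism, had 25.4, 27.1, 25.6 and 22.4 FPKM with wtSOD1-ACM, against 32.1, 32.8, 35.3, 31.5 and 34.3 FPKM in control (log2 fold change -0.39, SE 0.06, adjusted p = 0.000868; -0.34 in set 1 and -0.44 in set 2). Asns (25612), asparagine synthetase, had 20.7, 21, 22.1 and 19.8 FPKM with wtSOD1-ACM, against 25.4, 24.7, 25.6, 24.5 and 25.6 FPKM in control (log2 fold change -0.26, SE 0.05, adjusted p = 0.00831; -0.26 in set 1 and -0.25 in set 2). Both falls were small, and the narrow spread of the libraries kept the groups apart. Herpud1 (85430), a membrane protein of the degradation machinery of the endoplasmic reticulum, had 37.2, 40.4, 33.1 and 34.5 FPKM with wtSOD1-ACM, against 50.1, 48.7, 46.3, 46.3 and 48.2 FPKM in control (log2 fold change -0.40, SE 0.06, adjusted p = 0.000699; -0.31 in set 1 and -0.47 in set 2). Herpud1 was the only call among 20 ER chaperones and unfolded protein response genes, whose median was -0.05. The chaperone Hspa5 had 484 ± 32.9 FPKM with wtSOD1-ACM and 507 ± 52.7 FPKM in control (adjusted p = 1).

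Of 23 ATF4 and integrated stress targets tested, 5 were called lower and none higher, the median was -0.18 and 22 of the 23 had a negative change, against a median of -0.00 over all genes tested. With class as a term 8 of them were lower, and 5 on the units with that term. With 1 unit per group and class and no such term none was called. All 8 called falls of the comparison had an unadjusted p under 0.05 in limma there. Those units are averages of the same libraries that chose the 8 genes, so these p-values are no separate test of them. The messenger of Atf4 itself (79255) had 239, 231, 194 and 184 FPKM with wtSOD1-ACM, against 247, 202, 259, 218 and 235 FPKM in control, with overlap (adjusted p = 1). Control of ATF4 lies largely at translation, which these data do not measure. Ppp1r15a, the phosphatase subunit GADD34 that ends the stress response, was not among the 23 listed and was in contrast higher. It had 68.3 ± 1.56 FPKM with wtSOD1-ACM and 54.9 ± 4.38 FPKM in control (0.31, adjusted p = 0.0151, and up to 0.0683 without any 1 of wtSOD1-ACM replicates 1, 2 and 3). Ppp1r15a is named after its values were seen, and the count of the list does not include it.

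**Figure D3:**
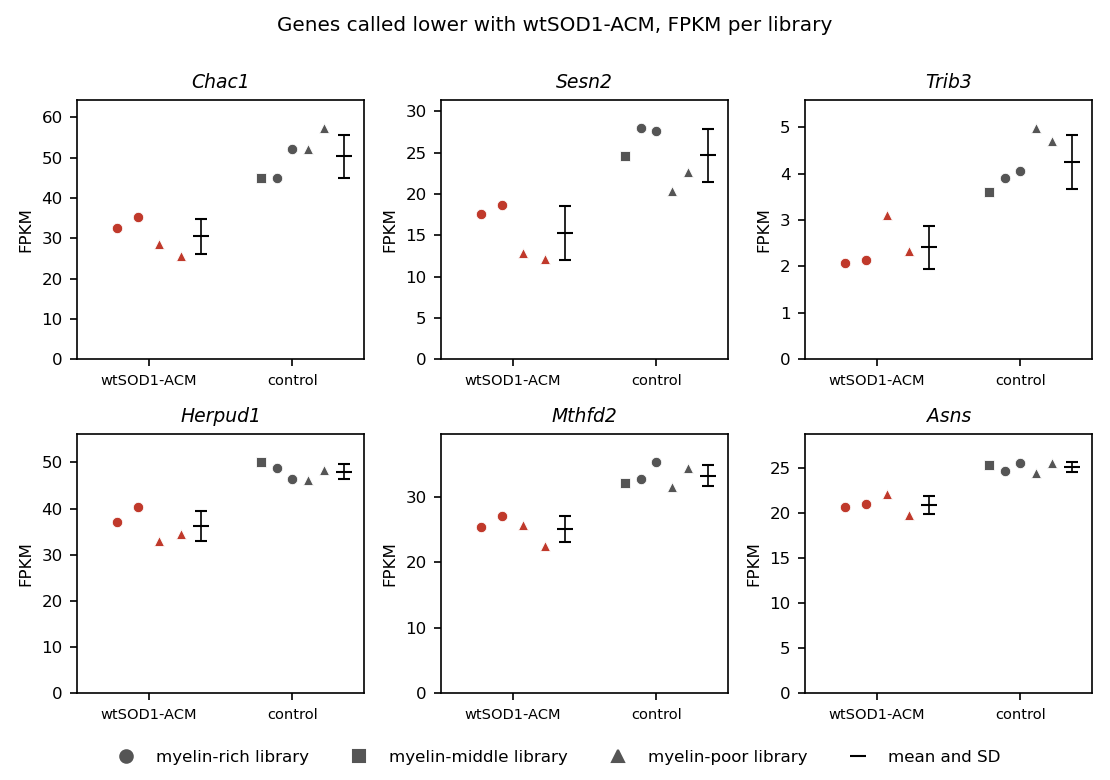
FPKM of the 6 protein-coding genes called lower (1 panel each) in the 4 wtSOD1-ACM libraries at the left and the 5 control libraries at the right, with a marker shape for each class of library and bars for the mean and SD. In each panel all wtSOD1-ACM libraries lie below all control libraries, as in Chac1 with 25.6 to 35.4 against 45.0 to 57.4 FPKM.

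Promoter windows are printed for 3 of the falls, those with a C/EBP-ATF response element, the motif that ATF4 binds with a partner (TGATGNAA, read on both strands; the capitals show its other strand). The motif was added after the called genes were known. Matches are in capitals, and all else is as above.

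Chac1, plus strand, chr3:126795881-126796130: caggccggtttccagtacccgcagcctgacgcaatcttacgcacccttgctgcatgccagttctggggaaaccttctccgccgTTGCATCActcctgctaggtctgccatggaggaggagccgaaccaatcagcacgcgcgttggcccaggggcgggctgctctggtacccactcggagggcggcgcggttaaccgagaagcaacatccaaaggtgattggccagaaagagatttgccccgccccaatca
Trib3, minus strand, chr3:161275534-161275783: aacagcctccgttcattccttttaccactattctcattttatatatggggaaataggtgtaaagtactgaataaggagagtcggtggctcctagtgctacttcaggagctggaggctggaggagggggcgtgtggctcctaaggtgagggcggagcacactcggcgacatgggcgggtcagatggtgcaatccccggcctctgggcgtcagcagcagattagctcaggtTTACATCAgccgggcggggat
Herpud1, minus strand, chr19:10614708-10614957: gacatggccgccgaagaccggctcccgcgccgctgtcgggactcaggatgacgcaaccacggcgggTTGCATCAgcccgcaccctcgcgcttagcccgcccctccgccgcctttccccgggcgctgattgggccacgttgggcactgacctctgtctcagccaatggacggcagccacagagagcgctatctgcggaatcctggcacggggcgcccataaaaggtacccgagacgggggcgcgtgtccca

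The match lies 167 to 160 bases before the start of Chac1, 21 to 14 before that of Trib3 and 184 to 177 before that of Herpud1. It was in 3 of the 6 falls that have a window (50%), in 0 of the 53 rises and in 196 of all 9586 windows (2.04%).

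The remaining falls were miRNA genes. Mir760 (100314118) had 0.93, 0.77, 1.19 and 1.19 FPKM with wtSOD1-ACM, against 5.3, 5.71, 2.04, 6.24 and 3.07 FPKM in control (log2 fold change -1.37, SE 0.29, adjusted p = 0.034; -1.45 in set 1 and -1.31 in set 2). Mir1896 (104795672) had 4.56, 3.76, 3.48 and 5.83 FPKM with wtSOD1-ACM, against 7.4, 11.2, 11.9, 9.76 and 7.01 FPKM in control (log2 fold change -0.94, SE 0.20, adjusted p = 0.0245; -1.09 in set 1 and -0.75 in set 2). The groups did not overlap in either gene, and control libraries varied widely. Libraries of poly(A) RNA do not measure mature miRNAs, and a hairpin is short enough for few fragments to give a high FPKM, so these values are uncertain. Mir760 lost its call without any 1 of 7 libraries (all but control replicates 3 and 5; adjusted p up to 0.141) and Mir1896 without any 1 of 6 (control replicates 2, 3 and 4 and wtSOD1-ACM replicates 1, 2 and 3; up to 0.126). The mature sequences listed for these genes in RefSeq GRCr8, from both arms of Mir760, are given with the seed (bases 2 to 8) in capitals, to show that no seed is shared.

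rno-miR-760-3p, minus strand, chr2:213077281-213077300: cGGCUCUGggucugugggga
rno-miR-760-5p, minus strand, chr2:213077316-213077337: cCCCUCAGgccaccagagcccg
rno-miR-1896, minus strand, chr17:47861018-47861035: uGGUGGGUgaggaggagg

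No call was made in 35 of the 56 gene lists. They include astrocyte, microglia, oligodendrocyte, neuronal, endothelial and fibroblast markers, ribosomal protein and respiratory chain genes, glycolysis, cholesterol synthesis, NRF2 targets, metallothioneins, collagens, glutamate and GABA receptors and ion channels. The 17 microglia markers had a median change of -0.23, against -0.08 within set 1 and 0.01 within set 2. The 14 astrocyte markers had one of -0.05 (-0.06 in set 1 and -0.03 in set 2). The median change of the 17 pan-neuronal markers was 0.07 (set 1, 0.115, and set 2, -0.05), and that of the 40 ribosomal protein genes was 0.04. In each of these 4 lists at most 1 member had an unadjusted p under 0.05 in limma. Among genes linked to amyotrophic lateral sclerosis none of 16 was called (limma, 1 higher at an unadjusted p under 0.05).

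**Figure D4:**
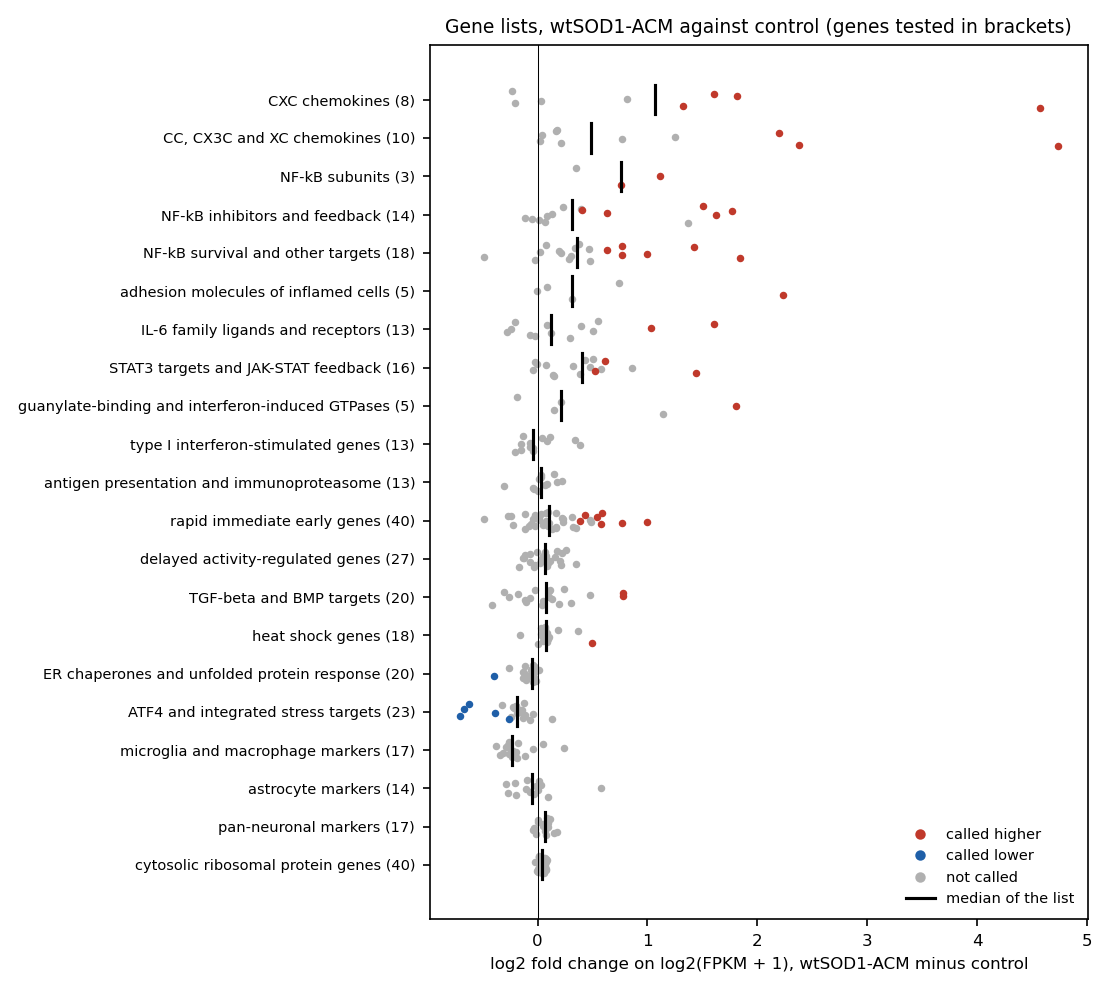
Log2 fold change on log2(FPKM + 1), wtSOD1-ACM minus control (x axis), of every tested member of 21 gene lists (rows, number tested in brackets), with called genes in red or blue, others in grey and the median as a black bar. Members of chemokine and NF-kB lists spread to the right, as far as 4.74 for Ccl2, and those of the ATF4 list to the left, as far as -0.71 for Chac1.

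Sod1 (24786), the rat gene, had 197, 185, 228 and 224 FPKM with wtSOD1-ACM, against 221, 169, 196, 195 and 239.6 FPKM in control, with overlap (adjusted p = 1). The human transgene is carried by the astrocytes that made the medium and not by these cultures. Gfap (24387), a filament protein of astrocytes, had 38.6, 45.5, 23.3 and 26.3 FPKM with wtSOD1-ACM, against 18.6, 36.4, 24.3, 14.1 and 18.5 FPKM in control, also with overlap (adjusted p = 1; 0.00418 with class as a term and 0.013 on units with that term). Chat, which marks motor neurons, was too low to test, at 0.6, 0.55, 1.08 and 0.95 FPKM with wtSOD1-ACM, against 0.45, 0.77, 0.58, 0.96 and 1.21 FPKM in control. Among the 9 motor neuron markers measured, 4 stayed below 1 FPKM in all 9 libraries. Pan-neuronal markers summed to 2620 to 2720 FPKM with wtSOD1-ACM and 1790 to 2950 FPKM in control, and astrocyte markers to 891 to 1700 and 896 to 2840 FPKM.

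The same genes were read side by side in the other exposures, which share the control libraries. Ccl2 had 3.13, 3.33, 7.32, 2.37 and 3.97 FPKM in the 5 mutSOD1-ACM libraries and 2.16, 1.79, 4.74, 2.55 and 3.87 FPKM in the 5 polyP libraries, close to the control values above. Icam1 had 16.5, 14.5, 17.5, 14 and 15 FPKM with mutSOD1-ACM and 9.46, 10.9, 12.7, 8.59 and 12.1 FPKM with polyP. No library of these exposures reached the wtSOD1-ACM level in either gene. Of the 67 genes called higher with wtSOD1-ACM, 45 were called lower with mutSOD1-ACM than with wtSOD1-ACM, where 0.463% of all genes were called lower and 0.00841%, Klf2, higher. That contrast uses the same wtSOD1-ACM libraries that chose the genes. Of the 8 falls none differed by a call between mutSOD1-ACM and wtSOD1-ACM (limma, 5 at an unadjusted p under 0.05). Against control all 8 had a negative change with mutSOD1-ACM as well, and none was called. This second contrast uses the same control libraries that chose the genes. Chac1 had 27.06 to 38.44 FPKM with mutSOD1-ACM, below every control library. With mutSOD1-ACM all libraries of Trib3, Herpud1, Mthfd2, Asns and Mir1896 also lay below every control library. The margin was narrow in Asns (at most 24.43 FPKM, against at least 24.46 FPKM in control) and in Mir1896 (7 against 7.01 FPKM). The libraries of Sesn2 and Mir760 overlapped control. The median of the 23 ATF4 and integrated stress targets tested was -0.14 with mutSOD1-ACM against control.

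Against control, mutSOD1-ACM gave 2 calls (0.0168%), Smad7 (10, 10.5, 9.66, 10.8 and 11.7 FPKM; log2 fold change 0.59, adjusted p = 0.00232) and Pmepa1 (98.9, 107, 96.7, 94.2 and 94.2 FPKM; 0.57, adjusted p = 0.0316). Both had risen with wtSOD1-ACM by 0.77 and 0.78, and neither differed by a call between the 2 media (adjusted p = 0.83 and 0.893). At an unadjusted p under 0.05 mutSOD1-ACM differed from control in 426 genes.

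Exposure to polyP changed many genes, with 23% of those tested called higher and 8.77% called lower against control. Of the 67 rises of wtSOD1-ACM, 2 were higher and 30 were lower with polyP. Lif had 3.25, 3.78, 6.26, 2.35 and 2.87 FPKM with polyP, with all 5 below the lowest control library, at 3.7 ± 1.52 FPKM with polyP and 11.6 ± 3.63 FPKM in control (log2 fold change -1.43, adjusted p = 0.000251). Of the 8 falls 1 was higher, Asns (0.19, adjusted p = 0.00322), and 2 were lower with polyP.

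**Figure D5:**
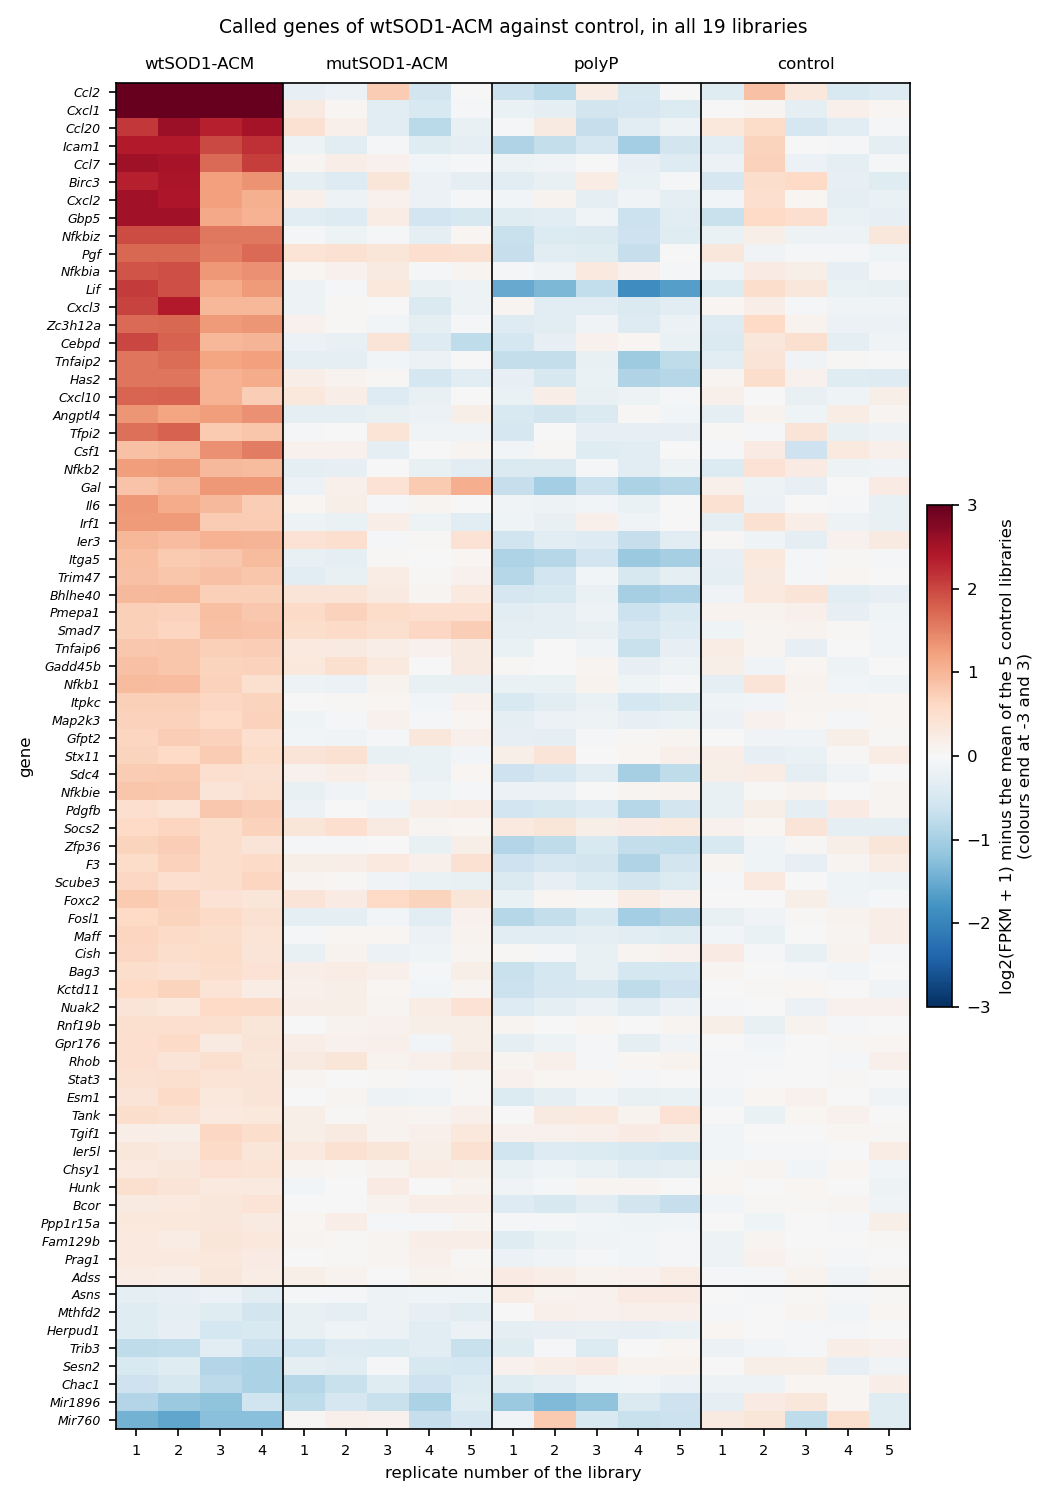
Difference of log2(FPKM + 1) from the mean of the 5 control libraries (colour, ending at -3 and 3) for the 75 called genes (rows, 67 rises above 8 falls) in all 19 libraries (columns: wtSOD1-ACM, mutSOD1-ACM, polyP and control). The 4 wtSOD1-ACM columns are red in the upper 67 rows and blue in the lower 8. Smad7 and Pmepa1, the only genes called with mutSOD1-ACM against control, are also red in the 5 mutSOD1-ACM columns. Uncalled changes included, 38 of the 67 rises were positive and all 8 falls negative with mutSOD1-ACM against control. These changes use the same control libraries that chose the genes, and the share of either sign over all genes tested is not given.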

How the data were processed

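RNA levels were measured by poly(A) RNA sequencing in 19 cultures, of which 4 wtSOD1-ACM and 5 control libraries make up the comparison. The authors deposited 1 table of FPKM per gene and library with 2 decimals, per the file headers. Reads were aligned with HISAT to rn6, per the submitters' processing notes, while the version of the aligner, the annotation, the tool that made the FPKM and whether libraries were scaled were not given in the sources used here. By the series design the libraries are strand-specific. Absolute depth is unknown. Relative depth, from the steps between low values of 83 genes (97.4% of 458 values within 0.1 fragment of a whole multiple), was 0.753 to 1.499 of the median library with wtSOD1-ACM and 0.874 to 1.439 in control.

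Genes at 1 FPKM or more in at least 4 libraries (11887) were fitted in R 4.3.3 with limma 3.58.1 (statmod 1.5.0) on log2(FPKM + 1), with all 4 groups in 1 fit, the group as the only term and empirical Bayes with trend and robust estimation. Two-sided p-values were adjusted by the Benjamini-Hochberg method over all genes tested, and every adjusted p in the text is from limma. Calls are genes with an adjusted p under 0.05. No count model was used, since FPKM are not counts. The script was tested on simulated data. The sets come from the sign of the first principal component and the classes from clustering of all libraries, and both were found in the data. The numbers of the replicates do not pair the samples: the correlation of deviations of same-numbered wtSOD1-ACM and control libraries was 0.267, 0.574, -0.687 and 0.762.

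The members, the 56 gene lists (1091 entries, 902 tested) and the tests were chosen with earlier results of these data known. Named genes are the 15 largest rises and up to 15 largest falls among called genes whose groups do not overlap, up to 5 called members and, by level, 3 uncalled members of each list described, and 12 fixed genes (Ccl2, Cxcl1, Icam1, Nfkbia, Klf2, Fos, Egr1, Npas4, Bdnf, Sod1, Gfap and Chat), and others are said to be named after their values were seen. Promoter windows and miRNA sequences are from RefSeq GRCr8 and were matched by gene identifier or symbol. Alternatives covered scaling, pseudocount, filter, class, set, replicate block and leaving out each library.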

Additional observations from a re-analysis of the deposited data

Results flagged for a closer look

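Single libraries far from the rest of their group were looked for in 117 groups of 4 or 5 libraries, the wtSOD1-ACM and the control group for each gene given by library and for summed FPKM, without Csf2 in control, which is 0 throughout. Chance gives about 1 such library in 20 groups, and 5 were found. In control replicate 2, Ccl7 stood at 1.68 FPKM (0.36 to 0.58 FPKM in the other control libraries) and Icam1 at 29.83 FPKM (14.4 to 18.22 FPKM). Pgf was lowest in wtSOD1-ACM replicate 3, at 12.56 FPKM (14.23 to 14.44 FPKM in the other wtSOD1-ACM libraries), and highest in control replicate 1, at 4.92 FPKM (3.31 to 3.55 FPKM). Csf2 was highest in wtSOD1-ACM replicate 1, at 0.71 FPKM (0.17 to 0.26 FPKM). Ccl7, Icam1 and Pgf kept their calls in limma when any 1 of the 9 libraries was left out (adjusted p up to 1.46e-05, 2.32e-06 and 2.32e-06), and Csf2 was not tested. Control replicate 2 also had the highest summed microglia markers of the 9 libraries, at 923 FPKM, and the part of microglia in these values was not tested.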

How the results depend on the processing

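No call changed its direction in any alternative tried. The number of genes called (75, with 67 higher and 8 lower) was within 1.5 times under other scalings, pseudocounts of 0.1 and 5, no filter or a limit of 5 FPKM, and without trend and robust estimation. It was 33 (32 higher, 1 lower) with the 9 libraries of both groups only, where the fit has fewer libraries to estimate the spread, and 143 (126 and 17) with set as a term. With class as a term it was 239 (179 and 60, so that 74.9% were higher, against 89.3% without the term). With 1 unit per group and class, chosen after seeing the data, it was 13 (13 and 0), and 98 (86 and 12) with class as a term besides. Within set 1 there were 3 lower calls. With the replicate number as a block 119 genes were called (106 and 13), among them all 75, but the numbers do not pair the samples, and wtSOD1-ACM replicates 1 and 2 correlated best with control replicate 3. The causes of these differences were not tested. Leaving out 1 library at a time gave 56 to 78 calls, 51 to 70 of them higher and 5 to 9 lower, with 49 rises and 4 falls called in every such fit, and the lowest count of falls, 5, came without wtSOD1-ACM replicate 1, 2 or 3. No gene was called for a different change in the 2 sets (265 at an unadjusted p under 0.05 in limma). Each group holds few libraries, absolute depth is unknown, and values under 1 FPKM rest on few fragments.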

Other observations

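Class as a term in the fit, which compares libraries within a class, added 164 calls to the 75, 112 higher and 52 lower. On 1 unit per group and class with the same term 31 of the 112 and 5 of the 52 were called. Summed microglia markers still differed within the myelin-rich class, at 443 to 447 FPKM with wtSOD1-ACM against 923 FPKM in control replicate 2, and their part in these calls was not tested. Among the added rises named here are 5 genes, which are followed by their adjusted p with the term and on the units. Bcl3 (680611), an IkB protein that acts in the nucleus, had 7.28, 7.56, 2.86 and 2.55 FPKM with wtSOD1-ACM, against 0.53, 2.87, 1.94, 0.91 and 0.41 FPKM in control, where control replicate 2 just exceeded the lowest wtSOD1-ACM libraries (log2 fold change 1.30, adjusted p = 7.85e-07 with the term and 0.00185 on the units, against 0.071 without it). Olr1, a scavenger receptor for oxidised lipoprotein, had 7.27 ± 3.81 FPKM with wtSOD1-ACM and 2.36 ± 1.84 FPKM in control (1.28, adjusted p = 2.93e-09 and 0.000237). Gbp2 had 5.38 ± 2 and 2.09 ± 1.66 FPKM (1.11, 4.5e-05 and 0.0185), and Tlr2, a receptor for bacterial lipoproteins, 8.24 ± 6 and 3.14 ± 2.86 FPKM (1.08, 0.000517 and 0.0334). Osmr, the oncostatin M receptor, had 2.31 ± 0.355 FPKM with wtSOD1-ACM and 1.25 ± 0.246 FPKM in control (0.63, 0.00099 and 0.0725), and it was not called on the units.

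The added falls included genes of several kinds. Cars, the transfer RNA synthetase of cysteine, had 38.8, 40.9, 40.8 and 41.5 FPKM with wtSOD1-ACM, against 41, 45.5, 44.7, 49.4 and 47.5 FPKM in control (-0.21, adjusted p = 0.0016 with the term and 0.126 on the units). Iars, that of isoleucine, had 37.5, 40, 41.7 and 38.9 FPKM with wtSOD1-ACM, against 42, 43.2, 47.4, 48.8 and 45.6 FPKM in control (-0.21, 0.0126 and 0.213). The groups overlapped in Cars and did not in Iars. Shmt2, which makes glycine in mitochondria, had 59.4 ± 4.41 FPKM with wtSOD1-ACM and 69.2 ± 4.61 FPKM in control (-0.24, 0.00129 and 0.118), and Slc7a5, a transporter of large neutral amino acids, 102 ± 16.4 and 128 ± 24.3 FPKM (-0.32, 0.0134 and 0.0395). Gpr34, a receptor gene of microglia, had 1.31 ± 0.98 FPKM with wtSOD1-ACM and 3.24 ± 3.25 FPKM in control (-0.75, 0.00804 and 0.167), and Evi2b, a membrane protein gene of myeloid cells, 0.887 ± 0.693 and 2.55 ± 2.31 FPKM (-0.82, 0.00165 and 0.108). Blnk, Tifab, Abi3 and Lyl1 were lower in that fit as well, with changes of -0.91 to -0.59 and an adjusted p of 0.0836 to 0.406 on the units. Of the falls named here Slc7a5 alone was called on the units. The genes of these paragraphs are named after their values were seen.

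Called rises not described so far, also named after their values were seen, had changes of 0.25 to 0.86. Trim47, an E3 ubiquitin ligase, had 24.5 ± 0.5 FPKM with wtSOD1-ACM and 13.2 ± 1.94 FPKM in control (adjusted p = 0.00262), and Gfpt2, which starts hexosamine synthesis, 6.65 ± 0.519 and 3.9 ± 0.383 FPKM (adjusted p = 0.00206). Chsy1, a chondroitin synthase, had 40.8 ± 1.84 FPKM with wtSOD1-ACM and 31.3 ± 1.75 FPKM in control (adjusted p = 0.00103). Scube3, Kctd11, Rnf19b, Gpr176 and Prag1 kept their calls when any 1 of the 9 libraries was left out. Stx11, Foxc2, Esm1, Hunk, Bcor, Fam129b and Adss lost them in at least 1 such fit, with an adjusted p of up to 0.185 for Fam129b and for Adss.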
